A study of Mus musculus with 32 samples.

Results

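Kidneys of Col4a3-/- mice were compared with kidneys of Col4a3+/+ mice at 7 weeks of age, when disease in this model is established. The comparison used 16 of the 32 mice of the study, 8 of each genotype, chosen by the genotype and age given in their labels. All genes on the array that could be named singly are described. The study profiled total RNA of whole kidney from male mice of strain 129 on Affymetrix Mouse Gene 2.0 ST arrays, 1 array per mouse, and the wild-type mice were littermate controls. The remaining 16 mice, 8 per genotype, were 4 weeks old and entered the fit to estimate the spread and, at the end, the difference between ages. All knockout mice were Col4a3-/-, no other allele is named, and no treatment is named in the labels of these groups. The labels number the mice 1 to 8 within each group. Standard errors and p-values of the fit below rest on 1 spread between animals per gene, pooled over the 4 groups. Slides and scan batches were not analysed here.

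Col4a3 encodes the alpha3 chain of type IV collagen, which assembles with the alpha4 and alpha5 chains into the network of the mature glomerular basement membrane, the filtration barrier between capillary and podocyte. Loss of any of these chains removes that network and causes Alport syndrome in people and a progressive glomerular disease in mice, in which protein leak is followed by tubular atrophy, interstitial inflammation and fibrosis. The tubules beyond the glomerulus make up most of the kidney's mass, so whole-kidney RNA reports mainly on them. In such bulk RNA, fewer cells of a type and less RNA per cell cannot be told apart.

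Values are log2 signals, so a difference of 1 is 2-fold, and each difference is knockout minus wild type with its standard error from a limma fit over all 32 arrays. A gene rose or fell where its p-value, adjusted by the Benjamini-Hochberg method over 22180 genes, was below 0.05. The median signal of an array over the named genes was 6.28 to 6.37 in knockout and 6.19 to 6.22 in wild-type mice, and the lowest correlation between arrays of a group was 0.981 in knockout and 0.987 in wild-type mice. Col4a3 itself ranged from 6.97 to 7.87 (median 7.15) in the knockout mice and 8.74 to 9.06 (median 8.93) in the wild-type mice. The groups did not overlap and the difference was -1.65 ± 0.13 (exact two-sided permutation p = 0.000155, the smallest that 12870 regroupings can give). Col4a4, which lies head to head with Col4a3 in the genome and encodes a partner chain, ranged from 7.36 to 8.00 (median 7.60) in the knockout mice and 8.00 to 8.49 (median 8.28) in the wild-type mice, a difference of -0.60 ± 0.11 (exact permutation p = 0.000155). Col4a5, the X-linked partner chain, differed by -0.13 ± 0.07, with an unadjusted exact permutation p = 0.0401 but an adjusted p = 0.141 in the limma fit. Its exact permutation p rose above 0.05, to at most 0.0786, when knockout mouse 1, 5, 6 or 8 or wild-type mouse 4, 5, 6, 7 or 8 was left out. Neither the extent of the deletion nor the place of the array's probes is stated in the labels, so the signal left in knockout mice was not interpreted. Kidney identity was checked on segment markers: the sodium phosphate cotransporter Slc34a1 of the proximal tubule had signals of 12.36 to 13.19 (median 12.93) in the knockout mice and 13.14 to 13.31 (median 13.24) in the wild-type mice.

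At 7 weeks the genotypes differed across much of the transcriptome. Of 22180 genes, 7167 passed, which is 32.3%: 3469 (15.6%) rose and 3698 (16.7%) fell in knockout kidneys. The rises were larger than the falls. Among passing genes, 1515 rose and 648 fell by at least 1.5-fold, 716 rose and 122 fell by at least 2-fold, 139 rose and 7 fell by at least 4-fold, and 29 rose and 0 fell by at least 8-fold. The 8 knockout values and the 8 wild-type values did not overlap for 2894 genes (13%), 1691 of them higher and 1203 lower. The balance of directions depended on the scaling. The median difference over all genes was -0.06, and centring each array on the median of its named genes, which was 0.114 higher in knockout mice, moved the split from 48.4% higher to 23.58% higher among passing genes. That centring also turned 6 of the list medians given below from just above to just below zero, those of podocyte, principal cell, EGF receptor, heat shock, glycolysis and reference genes.

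**Figure D1:**
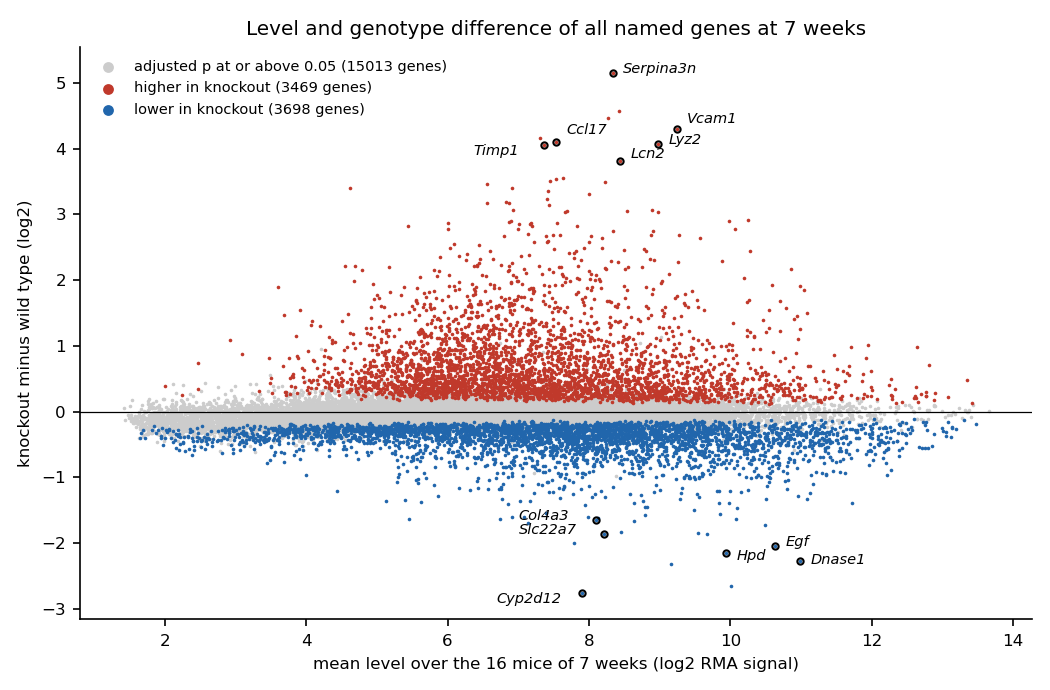
Each point is 1 gene, with its mean log2 signal over the 16 mice on the horizontal axis and the knockout minus wild-type difference (log2) on the vertical axis; red genes rose, blue genes fell and grey genes did not pass. The 29 genes beyond 8-fold all lie above the zero line, and circles mark 12 genes named in the text.

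The share of genes that fell was highest among genes with strong signals. Genes were divided into 5 equal groups by mean signal. In the group with the highest mean signal, 31.3% fell and 18.1% rose. In the middle group, the order was turned, with 13.7% falling and 25.1% rising. In the lowest group, where an array has little signal over background, 8.79% fell and 2.5% rose.

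The largest rises were those of Serpina3n, Ccl5, Ccl2 and Vcam1. Serpina3n, an acute phase serine protease inhibitor, had signals of 9.59 to 12.01 (median 10.95) in the knockout mice and 5.06 to 6.26 (median 5.81) in the wild-type mice. Its difference of 5.15 ± 0.33 was 35.5-fold (adjusted p = 1.8e-13). All 8 knockout mice stood above all 8 wild-type mice, with more than 3 log2 units between the groups. Ccl5, a chemokine that draws T cells and monocytes, had signals of 10.21 to 11.30 (median 10.70) in the knockout mice and 5.73 to 6.62 (median 6.17) in the wild-type mice, a 23.7-fold rise. Ccl2, the ligand that recruits Ccr2-bearing monocytes, had signals of 9.95 to 11.02 (median 10.51) in the knockout mice and 5.89 to 6.27 (median 5.98) in the wild-type mice, a 22.2-fold rise. Vcam1, an adhesion molecule that leukocytes bind through an integrin, had signals of 10.70 to 11.74 (median 11.48) in the knockout mice and 6.84 to 7.49 (median 7.05) in the wild-type mice, a 19.6-fold rise. Each of the 3 was separated between genotypes by a wide gap, and the wild-type mice lay within 1 log2 unit of each other.

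The next genes by size were Il1f6, Ccl17, Lyz2 and Timp1. Il1f6, which encodes the cytokine interleukin-36 alpha, had signals of 8.71 to 9.83 (median 9.44) in the knockout mice and 4.65 to 5.66 (median 5.27) in the wild-type mice. Ccl17, a chemokine that binds Ccr4, had signals of 8.93 to 10.24 (median 9.50) in the knockout mice and 5.17 to 5.697 (median 5.47) in the wild-type mice. Lyz2, the lysozyme of macrophages and neutrophils, had signals of 9.67 to 11.69 (median 11.16) in the knockout mice and 6.59 to 7.59 (median 6.92) in the wild-type mice. Timp1, an inhibitor of matrix metalloproteinases, had signals of 8.68 to 10.40 (median 9.39) in the knockout mice and 5.05 to 5.66 (median 5.32) in the wild-type mice. Differences of these 4 genes lay between 4.05 and 4.16, and none overlapped between genotypes. They were followed by the injury marker Lcn2 (3.81 ± 0.25), the lipopolysaccharide co-receptor Cd14 (3.56 ± 0.26), the matrix glycoprotein Tnc (3.54 ± 0.21), Sprr1a (3.51 ± 0.38), Ccl9 (3.50 ± 0.24), Ms4a6d (3.47 ± 0.35) and Gabrp (3.40 ± 0.28). Sprr1a, a cornified envelope protein of squamous epithelium, and Gabrp, a subunit of a GABA receptor, are not usual kidney genes. Sprr1a was also uneven in wild-type kidneys, at 4.70 to 7.34 (median 5.41), where mice 5 and 6 stood apart from the other 6 with signals of 7.34 and 7.19. The same mice had the highest wild-type signals of Psca and of the uroplakins given below. Gabrp was even in wild type, at 4.99 to 5.43 (median 5.25), and spread widely in knockout mice, at 6.84 to 10.35 (median 8.61).

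**Figure D2:**
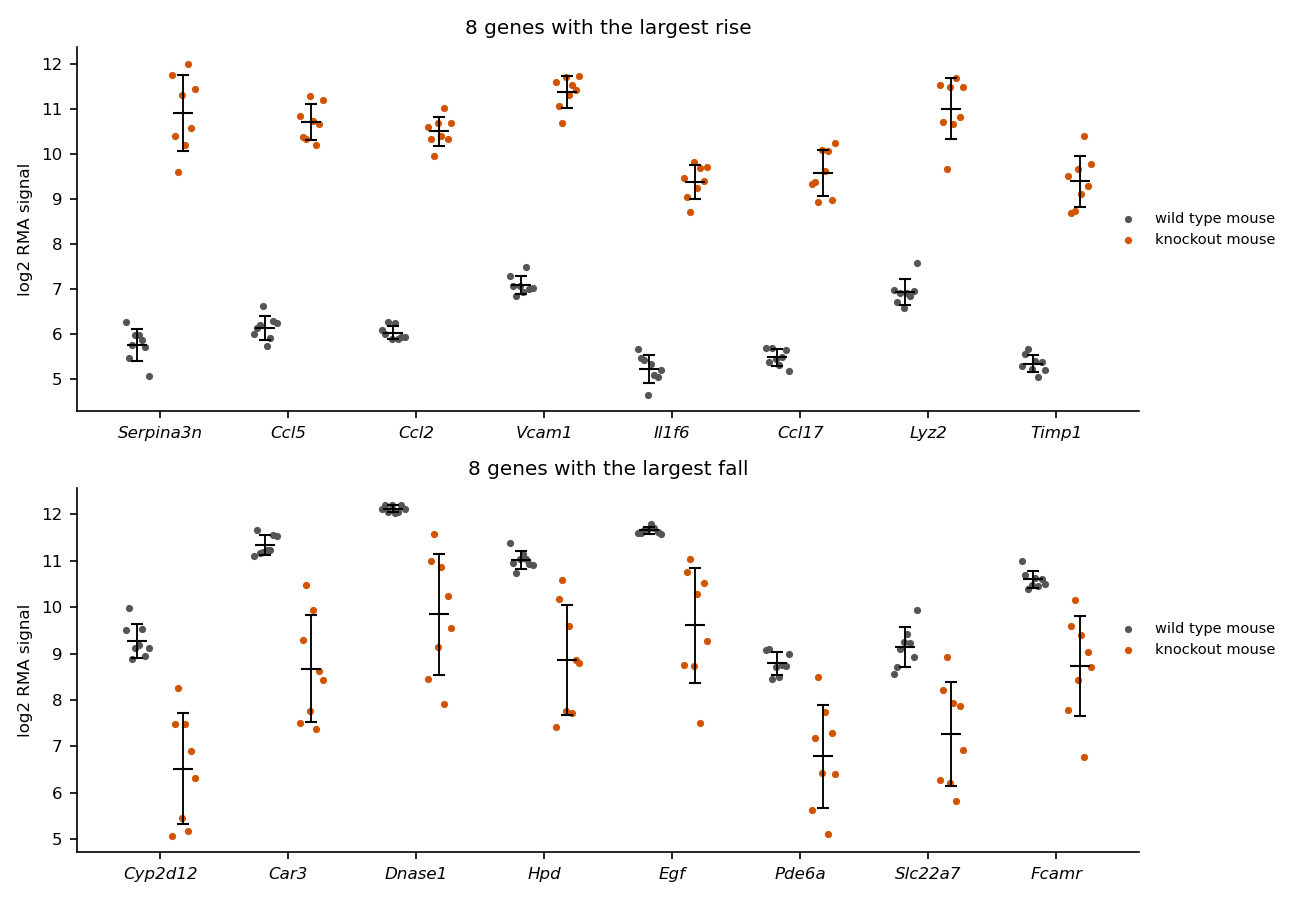
Log2 signal of every 7-week mouse for the 8 genes with the largest rise (top) and the 8 with the largest fall (bottom); grey points are wild-type mice, orange points knockout mice, and bars show the mean with SD (n = 8 each). Knockout and wild-type points are apart for all 8 rising genes, while among the falling genes Pde6a and Slc22a7 overlap and the knockout points spread over several log2 units.

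The rises with the smallest p-values were mostly smaller. They were the metalloprotease Adam8 (2.30 ± 0.13), the intermediate filament Vim (2.17 ± 0.13), the matrix protein Tgfbi (1.99 ± 0.12), Tnc, the hyaluronan receptor Cd44 (3.18 ± 0.19), Mybpc2 (2.22 ± 0.14), Timp1, the lectin Mgl2 (2.68 ± 0.17), Serpina3n and Lcn2. Vim had signals of 11.50 to 12.27 (median 11.91) in the knockout mice and 9.64 to 9.998 (median 9.78) in the wild-type mice. Adam8 had signals of 6.87 to 7.95 (median 7.27) in the knockout mice and 4.97 to 5.30 (median 5.09) in the wild-type mice. Both genes separated the genotypes completely. Mybpc2 encodes a myosin-binding protein of fast skeletal muscle, and its knockout signals of 6.83 to 7.97 (median 7.41) lay above wild-type signals of 4.95 to 5.65 (median 5.26).

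The largest falls were those of Cyp2d12, Car3, Dnase1, Hpd and Egf. Cyp2d12, a cytochrome P450, had signals of 5.07 to 8.25 (median 6.60) in the knockout mice and 8.88 to 9.97 (median 9.14) in the wild-type mice, a difference of -2.76 ± 0.32 (adjusted p = 3.26e-08). Car3, a cytosolic carbonic anhydrase, had signals of 7.37 to 10.47 (median 8.53) in the knockout mice and 11.10 to 11.66 (median 11.24) in the wild-type mice. Dnase1, a secreted nuclease made by the renal tubule, had signals of 7.91 to 11.57 (median 9.90) in the knockout mice and 12.02 to 12.21 (median 12.12) in the wild-type mice. For these 3 genes the highest knockout mouse was still below the lowest wild-type mouse, but the knockout mice spanned over 3 log2 units. Hpd, which acts in tyrosine breakdown, had signals of 7.42 to 10.58 (median 8.82) in the knockout mice and 10.74 to 11.39 (median 10.98) in the wild-type mice. Egf, the growth factor made by the thick ascending limb and distal tubule, had signals of 7.50 to 11.04 (median 9.78) in the knockout mice and 11.58 to 11.79 (median 11.63) in the wild-type mice. Fcamr, a receptor for IgM and IgA, had signals of 6.78 to 10.15 (median 8.88) in the knockout mice and 10.40 to 10.998 (median 10.55) in the wild-type mice. The groups were again apart for these 3. Pde6a, a phosphodiesterase subunit known from photoreceptors, had signals of 5.11 to 8.498 (median 6.80) in the knockout mice and 8.46 to 9.10 (median 8.75) in the wild-type mice, and the highest knockout mouse overlapped the wild-type range. Slc22a7, an organic anion transporter, had signals of 5.82 to 8.92 (median 7.40) in the knockout mice and 8.56 to 9.94 (median 9.16) in the wild-type mice, and the groups overlapped. The next falls were those of Clec2h (-1.83 ± 0.39), the carnosine dipeptidase Cndp1 (-1.73 ± 0.22), the transporter Slc22a26 (-1.66 ± 0.28), Nepn (-1.64 ± 0.26), the plasma glycoprotein Hrg (-1.64 ± 0.24) and the carboxylesterase Ces1e (-1.61 ± 0.22). For Clec2h the wild-type mice also spread, from 8.05 to 10.14 (median 9.62).

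The falls with the smallest p-values were smaller in size. After Col4a3 they were Cwh43 (-0.97 ± 0.10), the sialidase Neu2 (-0.66 ± 0.07), Insig1 (-0.81 ± 0.08), the mitochondrial aminotransferase Bcat2 (-0.71 ± 0.08), Mccc1 (-0.94 ± 0.10), the transcription factor Klf15 (-1.22 ± 0.14), Pgam2 (-0.71 ± 0.08), Ngef (-0.84 ± 0.10) and the 2-oxoglutarate receptor Oxgr1 (-0.73 ± 0.08). Cwh43 had signals of 6.13 to 6.82 (median 6.45) in the knockout mice and 7.13 to 7.66 (median 7.41) in the wild-type mice. Insig1, a brake on cholesterol synthesis, had signals of 8.39 to 8.91 (median 8.55) in the knockout mice and 9.14 to 9.70 (median 9.43) in the wild-type mice. None of these genes overlapped between genotypes. Klf15, a factor of podocytes and of amino acid metabolism, had signals of 6.98 to 8.29 (median 7.41) in the knockout mice and 8.64 to 8.98 (median 8.76) in the wild-type mice.

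The promoters of 4 genes are shown, each with a large rise or fall in its group: Serpina3n (largest rise), Cxcl10 and Cxcl1 (inflammatory chemokines) and Hpd (amino acid breakdown). They were chosen after the values were seen. The sequences are the 250 bases before the annotated start in RefSeq, build GRCm38.p6, written 5′ to 3′ on the gene's strand. Capitals mark matches, on either strand, to 6 motifs: AP-1 (TGANTCA), C/EBP (TTNNGCAAT), HNF1 (GTTAATNAT), HNF4 (CAAAGNNCA), an interferon-stimulated response element core (AAANNGAAA) and NF-kB by its name. Serpina3n lies at chr12:104406458-104406707, plus strand, Cxcl10 at chr5:92348890-92349139, minus strand, Cxcl1 at chr5:90890995-90891244, plus strand and Hpd at chr5:123182724-123182973, minus strand.
Serpina3n: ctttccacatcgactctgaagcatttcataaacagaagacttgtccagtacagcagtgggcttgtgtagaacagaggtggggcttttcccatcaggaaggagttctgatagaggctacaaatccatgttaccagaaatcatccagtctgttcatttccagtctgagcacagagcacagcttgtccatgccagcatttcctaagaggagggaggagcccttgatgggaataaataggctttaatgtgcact
Cxcl10: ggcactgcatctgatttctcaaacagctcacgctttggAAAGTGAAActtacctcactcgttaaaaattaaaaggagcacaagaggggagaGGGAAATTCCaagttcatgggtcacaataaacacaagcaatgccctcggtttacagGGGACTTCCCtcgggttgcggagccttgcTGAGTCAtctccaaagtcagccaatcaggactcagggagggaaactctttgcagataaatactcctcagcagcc
Cxcl1: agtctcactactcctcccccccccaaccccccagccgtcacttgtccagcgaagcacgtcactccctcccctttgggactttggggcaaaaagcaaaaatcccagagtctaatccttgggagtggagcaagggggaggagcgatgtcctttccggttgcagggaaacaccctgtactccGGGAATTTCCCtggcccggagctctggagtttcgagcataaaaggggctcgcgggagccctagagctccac
Hpd: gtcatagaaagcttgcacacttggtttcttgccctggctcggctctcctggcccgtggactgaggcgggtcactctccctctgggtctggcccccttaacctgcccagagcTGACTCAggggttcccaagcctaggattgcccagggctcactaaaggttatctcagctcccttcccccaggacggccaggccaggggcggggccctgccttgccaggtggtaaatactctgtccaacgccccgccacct
The Cxcl10 promoter held 4 matches: the interferon element beginning 212 bases before the start, NF-kB at 159 and 103 bases, and AP-1 at 74 bases. In the Cxcl1 promoter NF-kB was matched on both strands at overlapping positions, 71 and 70 bases before the start. Hpd had 1 AP-1 match, 139 bases before the start, and in Serpina3n none of the 6 motifs was found in this window.

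Over all promoters, 16990 of the 22180 genes had 20611 promoter windows in the table. The NF-kB motif was in 4.21% of them, in 8.89% of the 664 windows of genes that rose at least 2-fold and in 4.21% of the 617 windows of genes that fell at least 1.5-fold. The interferon element core was in 8.67%, 15.1% and 6.97%. AP-1 was in 6.37%, 8.73% and 5.19%, and C/EBP in 1.85%, 3.01% and 1.62%. HNF1, a factor of tubular epithelium, was in 0.679%, 0.753% and 2.11%, and HNF4 in 5.12%, 7.38% and 7.13%. The last 2 HNF1 shares rest on only 5 and 13 windows. A gene can have several windows: the 664 belong to 547 genes and the 617 to 499. These are shares of letter matches with no test, and a match is not a measured binding site.

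Markers of the proximal tubule fell in most members. Of 16 measured markers of its early segments, 13 fell and 0 rose, with a median difference of -0.47, beside 16.7% falling and a median of -0.06 over all genes. The counts of every list below stand beside the same background, 15.6% rising and 16.7% falling. Slc5a2, the glucose transporter of the early segments, fell (-0.91 ± 0.17), and so did the phosphate transporter Slc34a3 (-1.19 ± 0.22). The neutral amino acid transporter Slc6a19 had a difference of -1.07 ± 0.20 and Gatm, of creatine synthesis, -0.61 ± 0.12. The bicarbonate cotransporter Slc4a4 did not pass (-0.11 ± 0.08), nor did Slc7a7 (-0.20 ± 0.13). Of 14 markers of the straight segment, 12 fell and 1 rose. The fall was largest in the amino acid transporter Slc7a13 (-1.39 ± 0.26), with signals of 9.28 to 11.95 (median 11.28) in the knockout mice and 12.33 to 12.52 (median 12.42) in the wild-type mice. Slc5a1, the high-affinity glucose transporter of the straight segment, rose (0.66 ± 0.12), with signals of 8.95 to 9.66 (median 9.41) in the knockout mice and 8.42 to 8.98 (median 8.70) in the wild-type mice. Slc5a2 and Slc5a1, the early and the late glucose transporter, thus moved in opposite directions. Of 15 brush border genes, 12 fell, among them the trehalase Treh (-0.86 ± 0.15) and the meprin subunit Mep1b (-1.50 ± 0.31). Mme, or neprilysin (0.08 ± 0.14), and the endocytic adaptor Dab2 (-0.10 ± 0.09) did not pass. Of 18 organic ion transporters, 15 fell, Slc22a7 most, and among the rest were the carnitine transporters Slc22a5 (-0.73 ± 0.10) and Slc22a4 (-1.01 ± 0.15). Carnitine, creatine and taurine handling held 10 falls in 14 genes.

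**Figure D3:**
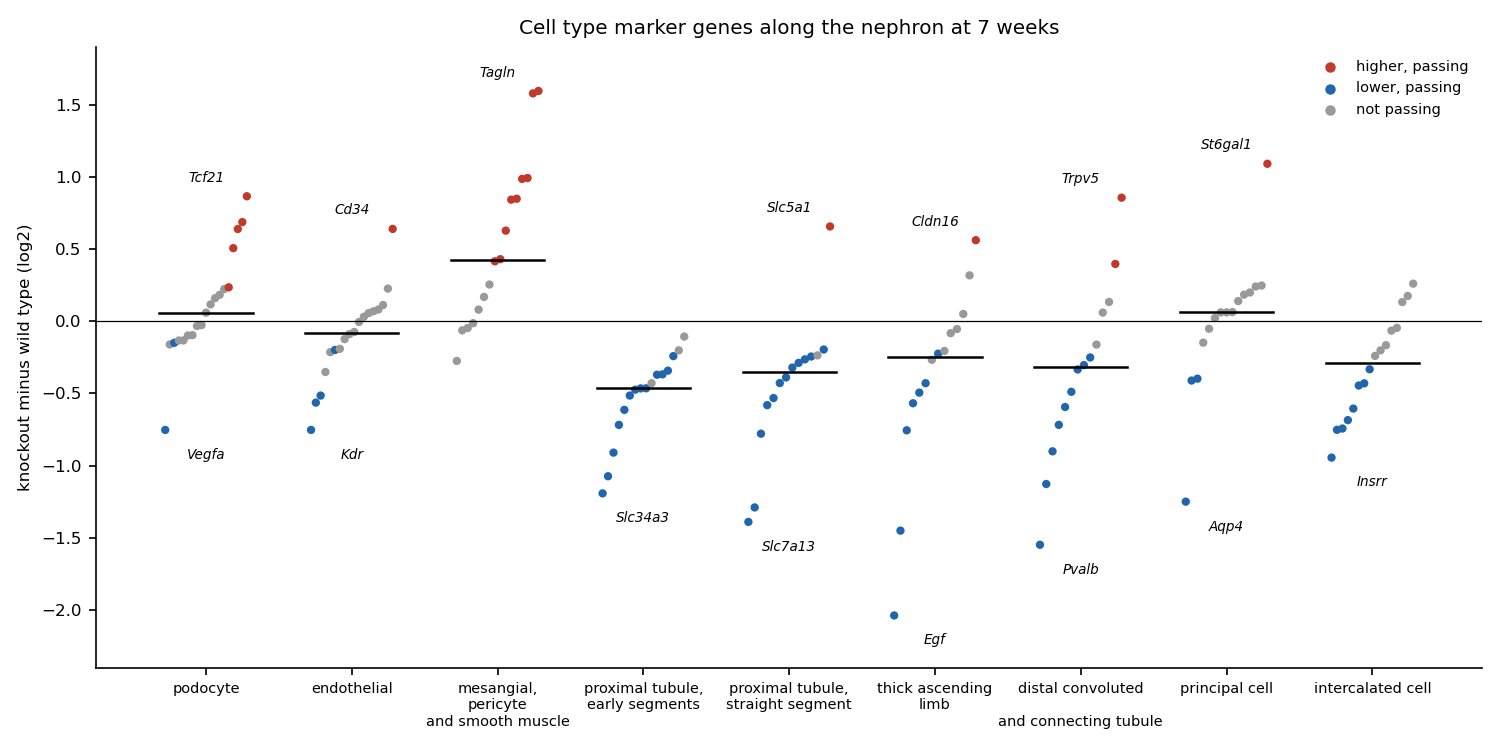
Each point is 1 marker gene, placed by its knockout minus wild-type difference (log2) within its cell type, with red for rose, blue for fell and grey for not passing, and a black line at the list's median. Proximal tubule markers lie almost wholly below zero (medians -0.47 and -0.36), while most podocyte and principal cell markers lie near zero.

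The distal nephron held changes in both directions. Of 14 thick ascending limb markers, 7 fell and 1 rose, with a median of -0.25. The mean signal of this list was 10.051 and 10.029 in wild-type mice 5 and 6 and 9.486 to 9.687 in the other 6, and without both mice 5 markers fell and 2 rose, with a median of -0.16. Besides Egf, the falls included the chloride channel subunit Bsnd (-0.43 ± 0.08) and the claudin Cldn10 (-0.57 ± 0.12), which forms sodium pores. The rise was in Cldn16 (0.56 ± 0.15), a claudin of magnesium reabsorption. Slc12a1, the furosemide-sensitive cotransporter, did not pass (-0.21 ± 0.16). In the distal convoluted and connecting tubule, 9 of 14 markers fell and 2 rose. The calcium-binding proteins Pvalb (-1.55 ± 0.20), S100g (-1.13 ± 0.17) and Calb1 (-0.90 ± 0.13) all fell, as did the thiazide-sensitive cotransporter Slc12a3 (-0.59 ± 0.14). In contrast the apical calcium channel Trpv5 rose (0.86 ± 0.14), from 8.66 to 9.28 (median 8.96) in wild-type to 9.13 to 10.55 (median 9.77) in knockout mice, and so did the basolateral calcium pump Atp2b1 (0.40 ± 0.07). Members of the same calcium pathway, the binding proteins on one side and the channel and pump on the other, moved in opposite directions.

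In the collecting duct 3 of 15 principal cell markers fell, or 20%, near the 16.7% over all genes. They were the basolateral water channels Aqp4 (-1.25 ± 0.23) and Aqp3 (-0.41 ± 0.12) and the sodium channel subunit Scnn1a (-0.40 ± 0.15). St6gal1 rose (1.09 ± 0.13). Scnn1a did not pass without wild-type mouse 1, 5 or 6 or knockout mouse 4, 5, 7 or 8 (limma adjusted p up to 0.0707). The apical water channel Aqp2 did not pass (0.24 ± 0.14). Of 16 intercalated cell markers, 8 fell and none rose, among them the ammonia transporter Rhbg (-0.75 ± 0.09) and proton pump subunits Atp6v1c2 (-0.69 ± 0.09) and Atp6v1b1 (-0.45 ± 0.06). The chloride exchanger Slc26a4, or pendrin, also fell (-0.61 ± 0.11). The list of 20 nephron transcription factors held 11 falls, among them Lhx1 (-0.90 ± 0.12), the proximal tubule regulator Hnf4a (-0.47 ± 0.08) and the mitochondrial coactivator Ppargc1a (-0.42 ± 0.07), and no rise.

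The defect begins in the glomerulus, but whole-kidney RNA does not show in which cells the changes below arose. Of 19 podocyte markers 5 rose and 2 fell, or 26.3% and 10.5%, beside 15.6% and 16.7% over all genes. The slit diaphragm adaptor Cd2ap rose (0.69 ± 0.08), as did the transcription factor Tcf21 (0.87 ± 0.12) and the nephrin relative Kirrel (0.64 ± 0.11). Vegfa, which podocytes and tubules both make, fell (-0.75 ± 0.12). Nephrin itself, Nphs1, did not pass (-0.16 ± 0.14), with signals of 6.86 to 7.70 (median 7.32) in the knockout mice and 7.37 to 7.63 (median 7.48) in the wild-type mice. The podocyte median was 0.06 and turned to -0.05 when arrays were centred on the named genes, under which 4 markers rose and 5 fell. Of 18 endothelial markers 4 fell (22.2%) and 1 rose (5.56%), beside 16.7% and 15.6% over all genes. The falls were the receptors Flt1 (-0.52 ± 0.09), Kdr (-0.75 ± 0.14) and Tek (-0.20 ± 0.06) and Ehd3 (-0.56 ± 0.11), a marker of glomerular capillaries. Cd34 rose (0.64 ± 0.09). With the same centring 9 endothelial markers fell and 1 rose. Mesangial, pericyte and smooth muscle markers had 9 rises of 16 and no fall, led by the contractile proteins Tagln (1.595 ± 0.13) and Acta2 (1.58 ± 0.13). With arrays centred on the named genes 9 of the 16 rose and 2 fell. Acta2, the smooth muscle actin of myofibroblasts, had signals of 11.32 to 11.93 (median 11.56) in the knockout mice and 9.77 to 10.33 (median 9.95) in the wild-type mice, without overlap. In the glomerular basement membrane list 7 of 16 genes rose and 2 fell, the latter Col4a3 and Col4a4. With arrays centred on the named genes 7 of this list rose and 4 fell. The alpha1 and alpha2 chains of type IV collagen, Col4a1 (0.62 ± 0.13) and Col4a2 (0.63 ± 0.12), rose together, and the linker nidogen, Nid1, rose most (1.03 ± 0.11). Laminin chains were uneven: Lamb1 rose (0.39 ± 0.10), while Lama5 (0.40 ± 0.17) and Lamb2 (0.19 ± 0.13), the chains of the mature membrane, did not pass.

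Genes of energy metabolism fell in most lists. The proximal tubule burns fatty acids in its mitochondria rather than glucose, and it makes glucose and breaks down amino acids. Of 32 genes of amino acid breakdown 29 fell and 1 rose, with a median of -0.73. Mccc1, of leucine breakdown, had signals of 7.73 to 8.55 (median 8.17) in the knockout mice and 8.99 to 9.24 (median 9.04) in the wild-type mice. Haao, of tryptophan breakdown, fell (-1.21 ± 0.18) while Kynu, an earlier enzyme of that pathway, rose (0.73 ± 0.27). Kynu did not pass without wild-type mouse 2, 5, 7 or 8 or knockout mouse 4, 6, 7 or 8 (limma adjusted p up to 0.0806), or when arrays were centred on the named genes (adjusted p = 0.058). Oat (0.13 ± 0.07) and Tat (-0.09 ± 0.10) did not pass. Of 32 genes of oxidative phosphorylation 28 fell and none rose, but the size was small, with a median of -0.32. Ndufs1, a core subunit of complex I, had signals of 8.91 to 9.60 (median 9.35) in the knockout mice and 9.86 to 10.06 (median 9.94) in the wild-type mice. The mean signal of the 32 genes was 9.68 to 10.06 in knockout and 10.19 to 10.24 in wild-type mice, so every knockout mouse lay below every wild-type mouse. Of 17 genes of the citric acid cycle 15 fell, such as the dehydrogenase subunit Idh3b (-0.36 ± 0.06). Citrate synthase, Cs, did not pass (-0.09 ± 0.08).

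Fat and sugar pathways held more exceptions. Of 26 genes of fatty acid oxidation 17 fell and 1 rose. Falls included the short- and medium-chain dehydrogenases Acads (-0.72 ± 0.11) and Acadm (-0.56 ± 0.10). The rise was in Pdk4 (1.13 ± 0.27), a kinase that blocks pyruvate entry and that varied widely, at 8.43 to 10.49 (median 9.08) in knockout mice. Of 21 peroxisomal genes 18 fell, among them Pipox (-0.48 ± 0.06) and Phyh (-0.72 ± 0.10). Of 8 genes of gluconeogenesis 7 fell, including Pck1 (-0.88 ± 0.21) and Khk (-0.94 ± 0.13), which begins fructose use. Glycolysis showed no common direction: 3 of 15 genes rose (20%) and 2 fell (13.3%), near the 15.6% and 16.7% over all genes. When arrays were centred on the named genes, 3 rose and 6 fell. Isoforms of the same glycolytic step moved apart in the main fit, with Pfkp rising (1.03 ± 0.14) and Pfkm falling (-0.63 ± 0.09), and Hk2 rising (0.76 ± 0.09). Of 19 genes of cholesterol synthesis 12 fell, Cyp51 most among those named (-1.58 ± 0.23), while Fdps rose (0.35 ± 0.11), a call lost under centring on the named genes (0.23, adjusted p = 0.0644). In NAD metabolism 8 of 15 genes fell, among them the salvage enzyme Nampt (-0.49 ± 0.11), and 3 rose, including the methyltransferase Nnmt (0.91 ± 0.13).

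Matrix genes rose in most members. Of 17 collagens other than type IV 13 rose and 1 fell. The fibrillar chains Col1a1 (1.93 ± 0.17), Col1a2 (1.71 ± 0.11) and Col3a1 (2.07 ± 0.14) were among them. Col3a1 had signals of 8.24 to 9.61 (median 9.31) in the knockout mice and 6.53 to 7.28 (median 7.07) in the wild-type mice, far apart. Col27a1, a cartilage-type collagen, fell (-0.56 ± 0.14). Of 24 matricellular and myofibroblast genes 22 rose, including fibronectin, Fn1 (2.64 ± 0.20), and the calcification inhibitor Mgp (1.91 ± 0.12). Among proteases and their inhibitors 17 of 21 rose. Mmp12, the macrophage elastase, rose (2.42 ± 0.18), and so did the gelatinase Mmp2 (2.46 ± 0.19), while Timp3 did not pass (-0.13 ± 0.07). In the TGF-beta and BMP list 12 of 24 rose, among them the ligands Tgfb1 (1.12 ± 0.13), Tgfb2 (0.83 ± 0.11) and Tgfb3 (1.11 ± 0.12). Bmp7, which acts against TGF-beta in tubules, fell (-0.59 ± 0.11), and the signal carrier Smad3 did not pass (0.18 ± 0.12).

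Nearly all macrophage markers rose. Of 27 macrophage and monocyte markers 26 rose, with a median of 2.15. At least 2-fold rises were seen in 23 of the 27, beside 716 of 22180 over all genes. Cd68, a lysosomal protein of macrophages, had signals of 8.81 to 10.13 (median 9.47) in the knockout mice and 6.49 to 7.08 (median 6.89) in the wild-type mice. Itgax, or CD11c, rose as well (2.40 ± 0.16), and so did the mannose receptor Mrc1 (2.15 ± 0.17). Cd163, the haemoglobin scavenger receptor, did not pass (0.04 ± 0.09). The mean signal of the 27 markers was 7.73 to 9.01 in knockout and 6.20 to 6.39 in wild-type mice. Dendritic cell markers had 6 rises of 9, with Xcr1 (1.04 ± 0.17) and Ccr7 (1.32 ± 0.17) rising and Batf3 (0.19 ± 0.10) not passing.

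Lymphocyte markers were mixed. Of 18 T cell markers 11 rose, among them the receptor chains Cd3e (1.22 ± 0.15) and Cd3g (1.70 ± 0.25) and the co-receptors Cd4 (0.90 ± 0.16) and Cd8b1 (0.94 ± 0.11). Cd6 (0.18 ± 0.09) and Cd28 (0.23 ± 0.13) did not pass. When arrays were centred on the named genes 8 T cell markers rose, and 8 rose without wild-type mice 5 and 6. Natural killer and cytotoxic genes had 6 rises of 12, among them the chemokine Xcl1 (0.73 ± 0.12), and 1 fall. Under that centring 5 of these 12 genes rose and 1 fell, as without wild-type mice 5 and 6. The fall was that of perforin, Prf1 (-0.34 ± 0.12). It did not pass without wild-type mouse 4, 7 or 8 or knockout mouse 6 or 8 (limma adjusted p up to 0.0774). B and plasma cell genes had 5 rises of 15 and no fall, 4 rises and 2 falls when arrays were centred on the named genes, and 3 rises and no fall without wild-type mice 5 and 6. The heavy chain Ighm was uneven, at 9.23 to 11.55 (median 10.47) in the knockout mice and 8.92 to 10.47 (median 9.69) in the wild-type mice, and its rise did not pass without knockout mouse 1 or 8 (limma adjusted p up to 0.055). Of 12 neutrophil markers 3 rose (25%) and 2 fell (16.7%), beside 15.6% and 16.7% over all genes. When centred on the named genes 3 rose and 4 fell. Csf3r, the G-CSF receptor, rose (1.12 ± 0.11), while the granule genes Camp (-0.27 ± 0.10) and Ltf (-0.25 ± 0.07) fell and S100a9 did not pass (-0.14 ± 0.09). Camp did not pass without wild-type mouse 1, 3, 4, 5, 6 or 7 or knockout mouse 3, 4, 6 or 8 (limma adjusted p up to 0.109). The mean over the 12 was 4.77 to 4.98 in knockout and 4.62 to 4.87 in wild-type mice. The group of genes with the lowest mean signal ended at 4.561, not far below. Of 7 mast cell markers 1 rose (14.3%), near the 15.6% over all genes. Their mean was 3.82 to 4.34 in knockout and 3.99 to 4.14 in wild-type mice, below 4.561. The rise was that of the protease Cpa3 (0.44 ± 0.16). It did not pass without wild-type mouse 1, 3 or 5 or knockout mouse 1 or 8 (limma adjusted p up to 0.113). Nor did it pass when centred on the named genes (adjusted p = 0.0865).

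Most genes that recruit and hold these cells rose. Of 29 chemokines 22 rose and none fell. When arrays were centred on the named genes 22 rose and 3 fell, and 22 rose and 1 fell when centred on the median of all features. Besides those above, Ccl7 (2.90 ± 0.19), Ccl6 (3.17 ± 0.26) and Cxcl2 (2.49 ± 0.19) rose without overlap. Cxcl10, an interferon-induced ligand of Cxcr3 whose promoter is printed above, rose by 3.05 ± 0.36, with signals of 8.83 to 9.85 (median 9.07) in the knockout mice and 6.00 to 6.31 (median 6.16) in the wild-type mice. Cxcl1, a neutrophil attractant, rose by 1.87 ± 0.21, with signals of 6.70 to 7.94 (median 7.29) in the knockout mice and 4.95 to 6.04 (median 5.43) in the wild-type mice. Ccl28, a mucosal chemokine, did not pass (-0.43 ± 0.38) and ranged over more than 2 log2 units among knockout mice. Among receptors 6 of 16 rose, Ccr2 most (2.60 ± 0.25), and Ccr4, the receptor of Ccl17, did not pass (0.18 ± 0.13). Of 14 adhesion genes 11 rose, including Icam1 (1.85 ± 0.16) and the integrin chain Itgb2 (2.09 ± 0.20), while Sele (-0.08 ± 0.11) and Icam2 (-0.12 ± 0.09) did not pass.

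Most genes of the antigen presentation and innate immune lists rose. All 17 measured antigen presentation genes rose, among them the class II chains H2-Aa (2.45 ± 0.26) and H2-Eb1 (2.29 ± 0.25) and the class I chain H2-K1 (1.41 ± 0.22). H2-Aa had signals of 10.82 to 11.97 (median 11.54) in the knockout mice and 8.97 to 9.12 (median 9.05) in the wild-type mice. Class I genes are near-identical copies of each other, so their signals may be shared. All 21 genes of the Toll-like receptor and inflammasome list rose, including Tlr2 (2.21 ± 0.16), Tlr8 (2.83 ± 0.25) and Il1b (1.83 ± 0.19). Of 19 NF-kB and TNF genes 18 rose, including the feedback inhibitor Tnfaip3 (1.65 ± 0.12) and Tnf (1.46 ± 0.13). Osteoprotegerin, Tnfrsf11b, did not pass (0.16 ± 0.11). Interferon response genes had 15 rises of 19, such as Oasl1 (1.26 ± 0.14) and Gbp3 (2.04 ± 0.27). Rsad2 (0.05 ± 0.11), Ifit3 (-0.19 ± 0.13) and Oas3 (0.15 ± 0.08), which interferon also induces, did not pass. Of 17 complement genes 13 rose, among them the receptor C3ar1 (2.78 ± 0.18) and the terminal component C7 (2.29 ± 0.17), and the inhibitor Cd55 fell (-0.41 ± 0.12).

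Every one of the 26 measured tubular injury genes rose, with a median of 1.598. Among them Anxa3 (2.47 ± 0.16), S100a6 (2.83 ± 0.20) and Lgals3 (1.17 ± 0.09) were separated between genotypes. Of 21 acute phase genes 18 rose. The oncostatin M receptor Osmr had signals of 9.86 to 10.93 (median 10.46) in the knockout mice and 7.79 to 8.43 (median 8.10) in the wild-type mice, and the fibrinogen chain Fgg rose (2.89 ± 0.24). The acute phase genes Saa2 (0.24 ± 0.22) and Saa3 (0.16 ± 0.12) did not pass. Of 11 genes of the EGF receptor list Egf alone passed, beside 3 that fell with arrays centred on the named genes, while the receptor Erbb3 (-0.22 ± 0.17) did not.

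Proliferation genes rose with 1 exception. Of 29 cell cycle genes 28 rose. Cdk1, the mitotic kinase, had signals of 7.13 to 8.31 (median 8.11) in the knockout mice and 5.39 to 6.72 (median 5.89) in the wild-type mice. The helicase subunit Mcm6 (1.62 ± 0.16) and the topoisomerase Top2a (1.79 ± 0.20) rose too. The exception was cyclin D1, Ccnd1, which fell (-0.51 ± 0.11). The arrest gene Cdkn1a, or p21, rose at the same time (1.83 ± 0.23), within a p53 and arrest list of 8 rises among 15. Of 22 immediate early genes 15 rose, including Atf3 (2.12 ± 0.14) and Egr2 (1.59 ± 0.12). Fosb did not pass (0.21 ± 0.12), and the phosphatase Dusp1 fell (-0.56 ± 0.17). Cell death genes had 9 rises of 17, among them the necroptosis genes Mlkl (1.47 ± 0.16) and Ripk3 (0.66 ± 0.09).

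Stress responses differed by kind. Of 19 genes of the unfolded protein and integrated stress responses 5 rose, Asns most (0.82 ± 0.10), and the chaperone Hspa5 did not pass (0.28 ± 0.14). Of 15 hypoxia target genes 5 fell and 2 rose, and 7 fell and 0 rose with arrays centred on the named genes. Car9 (-0.81 ± 0.12), Bnip3 (-0.61 ± 0.09) and Egln1 (-0.47 ± 0.07), all induced by hypoxia in many cells, fell without overlap, and Hif1a rose by 0.19 ± 0.06, a call lost under centring on the named genes (0.08, adjusted p = 0.227). Oxidative defence was split, with 6 rises and 5 falls in 18 genes, and 6 rises and 10 falls when arrays were centred on the named genes. Metallothioneins Mt1 (0.93 ± 0.12) and Mt2 (0.98 ± 0.11) and Hmox1 (0.80 ± 0.15) rose, while mitochondrial Sod2 (-0.38 ± 0.06) and catalase, Cat (-0.32 ± 0.07), fell. Heat shock genes held 4 rises and 3 falls in 13, and 3 rises and 5 falls with that centring. Small heat shock proteins Hspb1 (1.93 ± 0.21) and Hspb8 (1.16 ± 0.16) rose, and mitochondrial chaperones Hspd1 (-0.45 ± 0.08) and Hspa9 (-0.30 ± 0.07) fell. Of 22 lysosomal genes 14 rose, led by the cathepsins Ctss (3.32 ± 0.27) and Ctsc (1.91 ± 0.17) of antigen-presenting cells, and Lipa did not pass (-0.18 ± 0.10).

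Of 15 genes of phosphate, vitamin D and klotho 7 fell and 3 rose. Klotho, Kl, the co-receptor for the phosphate hormone FGF23, had signals of 11.14 to 12.44 (median 11.84) in the knockout mice and 12.54 to 12.66 (median 12.59) in the wild-type mice, without overlap. Cyp27b1, which makes active vitamin D, rose (0.75 ± 0.24) with overlapping groups. The widely expressed phosphate transporter Slc20a1 rose (1.08 ± 0.12), while the proximal tubule's Slc34a1 (-0.37 ± 0.10) and the parathyroid hormone receptor Pth1r (-0.49 ± 0.10) fell. In the renin-angiotensin list 4 of 12 fell, among them Ace (-0.69 ± 0.19) and the receptor Agtr1a (-0.25 ± 0.07), and angiotensinogen, Agt, rose (0.61 ± 0.14). Of 17 circadian clock genes 6 fell and 1 rose. The output factors Tef (-0.80 ± 0.12) and Hlf (-0.96 ± 0.15) fell, whereas the core clock genes Arntl (0.43 ± 0.23) and Nr1d1 (-0.37 ± 0.36) did not pass and varied between mice of both genotypes. Without wild-type mouse 5 Arntl passed (0.61, limma adjusted p = 0.0233). The labels do not state the hour at which kidneys were taken.

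Genes that differ between the sexes in mouse kidney were listed as well, although all mice were male. Of 17 male-biased genes 14 fell and none rose, with a median of -0.82. The cytochrome P450 Cyp2d9 (-1.29 ± 0.27) and the urate transporter Slc22a12 (-0.75 ± 0.15) were among them. Of 13 female-biased genes 7 fell and 4 rose. The rises included the amino acid transporter Slc7a12, at 7.93 to 10.97 (median 9.62) in the knockout mice and 6.84 to 8.40 (median 7.51) in the wild-type mice. The falls included Fmo5 (-0.96 ± 0.21) and Slc22a22 (-0.91 ± 0.18). Proximal tubule markers in general fell in the same mice (13 of 16 in the early segments), and the part of that fall in these lists was not tested.

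The study's title names lysine deacetylases, so their genes were listed too. Of 18 deacetylases and sirtuins 5 fell and 2 rose, or 27.8% and 11.1%, beside 16.7% and 15.6% over all genes. The mitochondrial deacetylase Sirt3 fell most (-0.77 ± 0.12), with signals of 7.72 to 8.88 (median 8.39) in the knockout mice and 9.02 to 9.35 (median 9.14) in the wild-type mice. Sirt7 (-0.40 ± 0.06) fell and Sirt6 (0.29 ± 0.09) and Hdac7 (0.44 ± 0.14) rose. Hdac5 (-0.17 ± 0.09) and Hdac9 (0.13 ± 0.07) did not pass. Sirt6 did not pass when arrays were centred on the named genes (0.18, adjusted p = 0.0897). Centred on the named genes, 10 members fell and 1 rose. Of 18 acetyltransferases and bromodomain readers 3 rose (16.7%) and 2 fell (11.1%), near the 15.6% and 16.7% over all genes. All 5 moved by less than 0.5, among them Kat2b (-0.30 ± 0.06) and Baz1a (0.29 ± 0.09). With that centring 0 rose and 4 fell, and Baz1a did not pass (0.18, adjusted p = 0.0864).

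**Figure D4:**
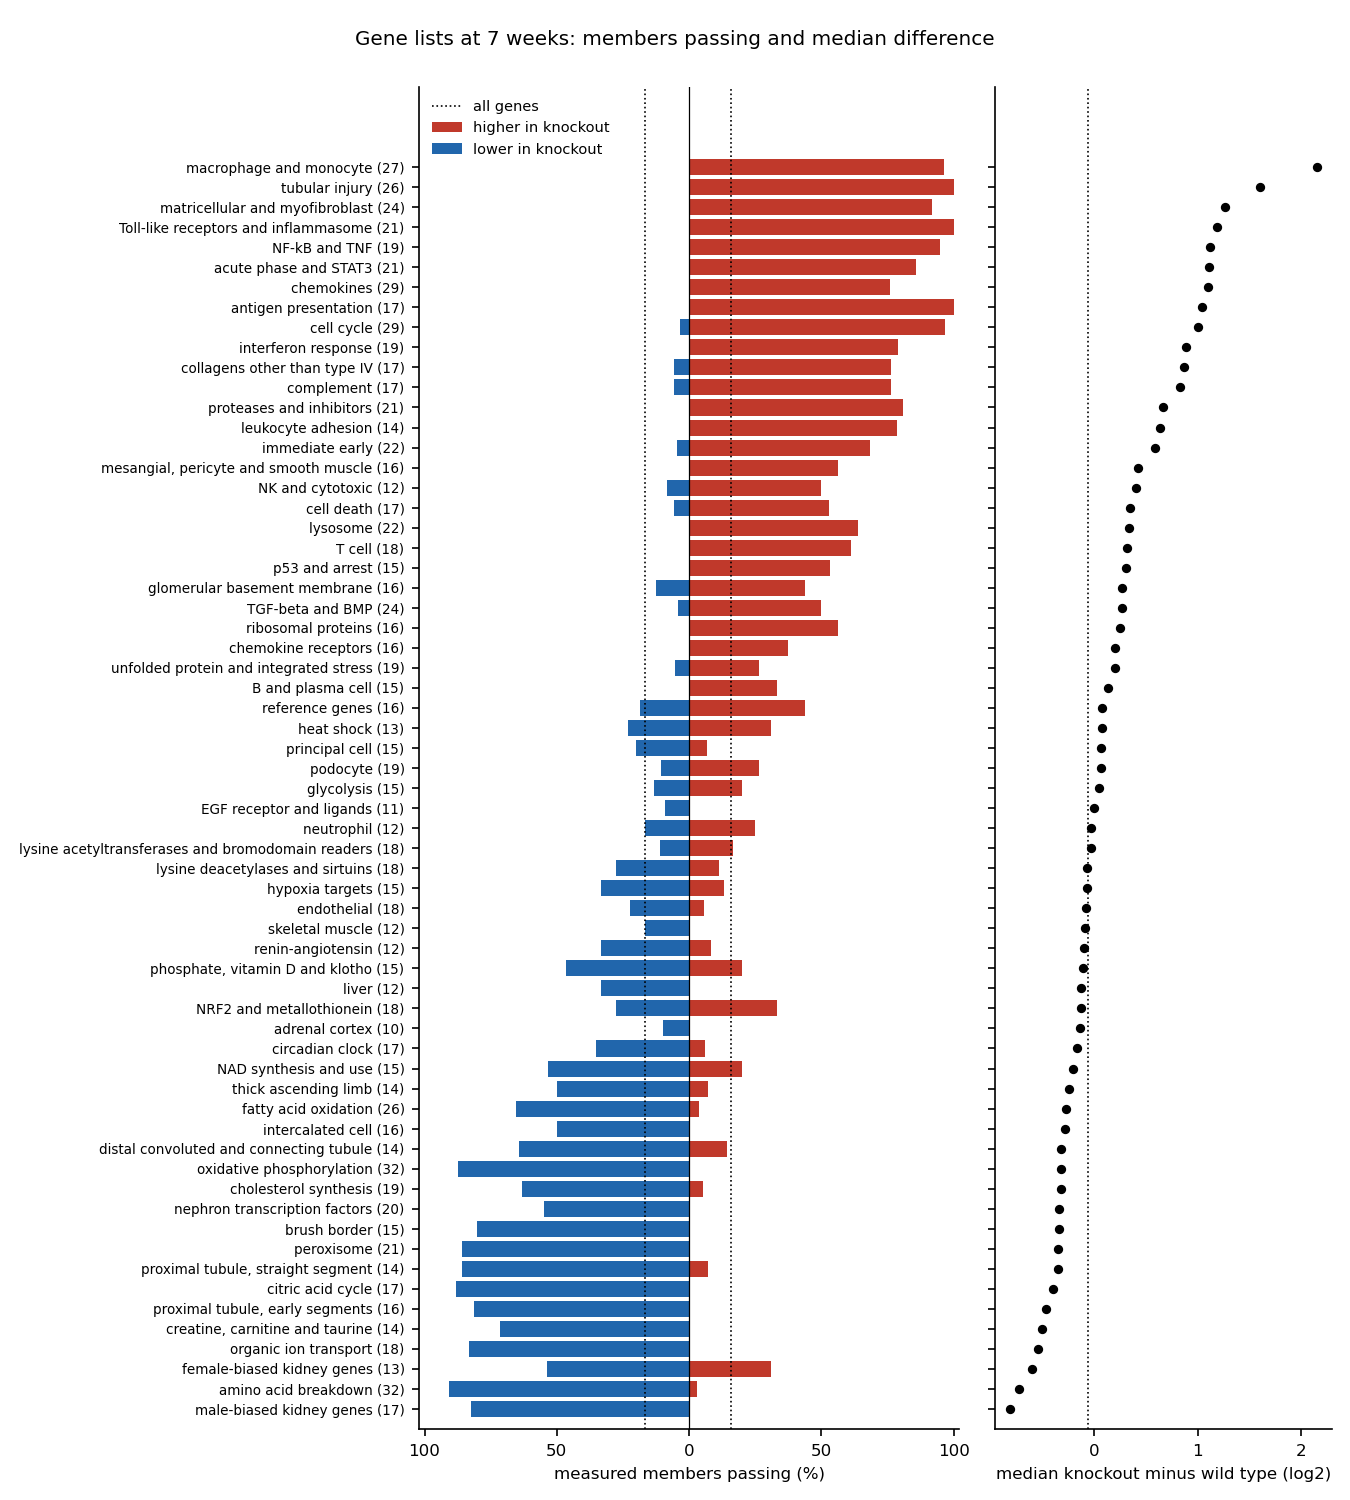
For each gene list with at least 10 measured genes (number in brackets), bars give the percent of members that rose (red, right) or fell (blue, left) in knockout kidneys at 7 weeks, and points give the list's median difference (log2). Dotted lines mark all genes, 15.6% higher, 16.7% lower and a median of -0.06; inflammation, injury and cell cycle lists lie at the top and metabolism and proximal tubule lists at the bottom.

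Sorting genes by family name, rather than by chosen list, gave 259 families of at least 10 genes. Over all genes 15.6% rose and 16.7% fell. The families named here were picked by their share, and ranking many small families itself favours high shares. Those with the largest share rising were Tlr (11 of 12), Cxcl (11 of 13), Gbp (7 of 10), Pcdhb (15 of 22), Septin (8 of 12), Ifi (9 of 14), Itga and Anxa (7 of 11 each), Mcm and Ano (6 of 10 each), Itgb (7 of 12) and Ccl (11 of 19). The clustered protocadherins, Pcdhb, are cell adhesion proteins best known from neurons. Pcdhb17 rose by 0.91 ± 0.13 and Pcdhb20 by 0.75 ± 0.12. They are close copies of each other, so 1 probe set may read several of them. Genes of the Gbp, Ifi, Ccl, Slc22, Ugt and Cyp2d families also have close copies, so which copy their values read is uncertain. Septins are cytoskeletal GTPases, and Septin2 (0.57 ± 0.07) and Septin11 (0.56 ± 0.06) rose without overlap. In the annexins, which bind membranes in a calcium-dependent way, Anxa1 (1.97 ± 0.18) and Anxa2 (1.88 ± 0.14) rose. Integrin chain Itga2, a collagen receptor, rose by 1.68 ± 0.14, and Itgb6, which activates latent TGF-beta, by 0.67 ± 0.11.

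The families with the largest share falling were Coq (10 of 11), which makes ubiquinone, the peroxins Pex (11 of 14), the glucuronosyltransferases Ugt (7 of 11), Slc22 (15 of 24), the mitochondrial importers Timm (9 of 15), Hsd (11 of 19), Akr (8 of 14), Aldh (12 of 21), the aquaporins Aqp (6 of 11), the mitochondrial carriers Slc25 (25 of 46), and Nat and Slc16 (7 of 13 each). These families were again picked by their share, beside 16.7% falling over all genes. Coq9 (-0.52 ± 0.08), Pex10 (-0.57 ± 0.08) and Aqp11 (-1.03 ± 0.15) fell without overlap. Several families held members against the trend. In Aldh, 7 genes rose, and the retinoic acid enzyme Aldh1a2 had signals of 7.33 to 8.74 (median 8.22) in the knockout mice and 5.32 to 5.72 (median 5.42) in the wild-type mice. In Slc25, the calcium-regulated ATP carrier Slc25a24 rose (2.20 ± 0.17). In Slc22, Slc22a15 rose (0.83 ± 0.09), and in Akr, Akr1b8 rose (1.15 ± 0.15). None of these 4 overlapped between genotypes.

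Some families were picked for the small share of their members that passed, beside 32.3% over all genes. None of 23 secretoglobins (Scgb) passed, and 1 of 21 prolactin relatives, 3 of 38 taste receptors (Tas) and 5 of 51 hair keratin associated proteins (Krtap) did, all of them lower. Their medians were -0.11 to -0.18, beside -0.06 over all genes. In the group of genes with the lowest mean signal 11.3% passed, with 8.79% falling and 2.5% rising. The part of low signal in the counts of these families was not tested. Of general transcription factors, 2 of 21 Taf genes and 3 of 31 Med genes passed.

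Several genes used to normalise other assays differed. Of 16 reference genes 7 rose and 3 fell, and 3 rose and 5 fell when arrays were centred on the named genes. Beta-actin, Actb, had signals of 10.39 to 10.90 (median 10.70) in the knockout mice and 9.87 to 10.15 (median 10.04) in the wild-type mice, and B2m (0.47 ± 0.08) and Rplp0 (0.52 ± 0.09) also rose without overlap. The transferrin receptor Tfrc (-1.30 ± 0.18) and the succinate dehydrogenase subunit Sdha (-0.38 ± 0.07) fell. Gapdh (-0.09 ± 0.05, 95% interval -0.19 to 0.02) and Tbp (-0.03 ± 0.06, 95% interval -0.15 to 0.08) did not pass, but both fell when arrays were centred on the named genes, by 0.20 and 0.15. Over all genes, 1817 (8.192%) had a 95% interval that lay within 0.2 of zero. Of 16 ribosomal protein genes 9 rose and none fell, with a median of 0.25 that was 0.14 after centring on the named genes.

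Markers of other tissues and of blood were followed as a check on what the samples held. In adrenal cortex 1 of 10 fell and none rose (5 fell when centred on the named genes), and the list's mean signal was 4.50 to 4.79 in knockout and 4.71 to 4.88 in wild-type mice. In adipocytes 2 of 8 fell, Lpl (-1.21 ± 0.18), which tubules also make, and Adipoq (-0.37 ± 0.08). In skeletal muscle 2 of 12 fell, 1 of them Pvalb, or 16.7%, as over all genes. In liver 4 of 12 fell, or 33.3%, Alb most (-1.24 ± 0.18). With arrays centred on the named genes 6 of each of these 2 lists fell. Of 6 erythroid and platelet genes 2 rose and 1 fell. Of 9 urothelial markers 1 rose (1 rose and 3 fell when centred on the named genes), Psca (3.23 ± 0.37), with signals of 7.80 to 9.89 (median 9.14) in the knockout mice and 4.51 to 7.33 (median 5.55) in the wild-type mice. Wild-type mice 5 and 6 had the 2 highest wild-type signals of Psca, 7.01 and 7.33, and the uroplakin Upk1b stood at 6.56 and 7.22 in them against 5.22 to 5.56 in the other 6. Without both mice the difference was 3.69 ± 0.36 for Psca and 4.03 ± 0.34 for Sprr1a, and 6583 genes passed. With all mice the uroplakins Upk1a (-0.36 ± 0.30), Upk1b (-0.43 ± 0.30) and Upk2 (-0.29 ± 0.14) did not pass. The mean of the urothelial list was 5.81 to 6.28 in knockout mice, 6.25 and 6.36 in wild-type mice 5 and 6 and 5.48 to 5.702 in the other wild-type mice. Without both mice 276 of 285 named genes kept their direction and call, 5 lost the call, 3 gained one and 1 changed sign. Of the 69 list medians 3 changed sign, and the largest shift was 0.152. The part of the urothelial markers in the other results was not tested beyond leaving both mice out.

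For the genes that changed most, knockout mice differed among themselves more than wild-type mice did. For genes that rose at least 2-fold the median SD was 0.409 in knockout and 0.194 in wild-type mice. For genes that fell at least 1.5-fold it was 0.378 and 0.149. Wild-type and knockout values did not overlap in 95.11% of the first set and in 61.57% of the second, beside 13.05% over all genes. Both sets were chosen by the size of their difference, which in part fixes these shares. Their cut-offs differ, so the 2 shares do not compare rises with falls. Over all genes the median SDs were alike, 0.165 and 0.159. The greatest ratios of the SDs were all but once in falling genes. Egf had SDs of 1.24 and 0.0755 in knockout and wild-type mice, Dnase1 of 1.3 and 0.0751, Slc7a13 of 0.954 and 0.0567, Akr1c14 of 1.2 and 0.0563 and the protease inhibitor Pzp of 1.18 and 0.0752. Further genes with high ratios were Cryzl2, Oxct1, Acat1 and Bphl, which fell, and Masp1 (0.97 ± 0.14), a lectin pathway protease, which rose. Acat1 and Oxct1, which handle ketone bodies, had signals of 9.78 to 11.57 (median 10.98) and 10.31 to 11.47 (median 11.23) in knockout mice. In wild-type mice Acat1 spanned only 11.77 to 11.89 (median 11.82). The standard errors above come from a spread pooled over all groups, so they can be too small for genes whose knockout mice spread widely.

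The same mice tended to lie near wild type, or far from it, across genes. For Egf the knockout mice 1 to 8 had signals of 8.76, 10.76, 11.04, 8.74, 10.28, 7.50, 10.53 and 9.28. For Hpd they had 7.42, 10.17, 10.58, 7.77, 9.59, 7.72, 8.85 and 8.80. For Serpina3n they had 11.76, 10.39, 9.59, 11.31, 10.20, 12.01, 10.58 and 11.45. Mouse 3 was nearest to wild type in each of these genes, and the farthest was mouse 6 for Egf and Serpina3n and mouse 1 for Hpd. A slope was computed for each mouse, of its deviation from the wild-type mean on the difference estimated without that mouse, across the genes passing without it. A slope of 1 means that the mouse deviated as much as the others. Slopes over rising genes ran from 0.597 in mouse 3 to 1.26 in mouse 6. Over falling genes they ran from 0.410 in mouse 3 to 1.71 in mouse 6, a wider range. Genes are not independent replicates, so these slopes describe the mice only.

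**Figure D5:**
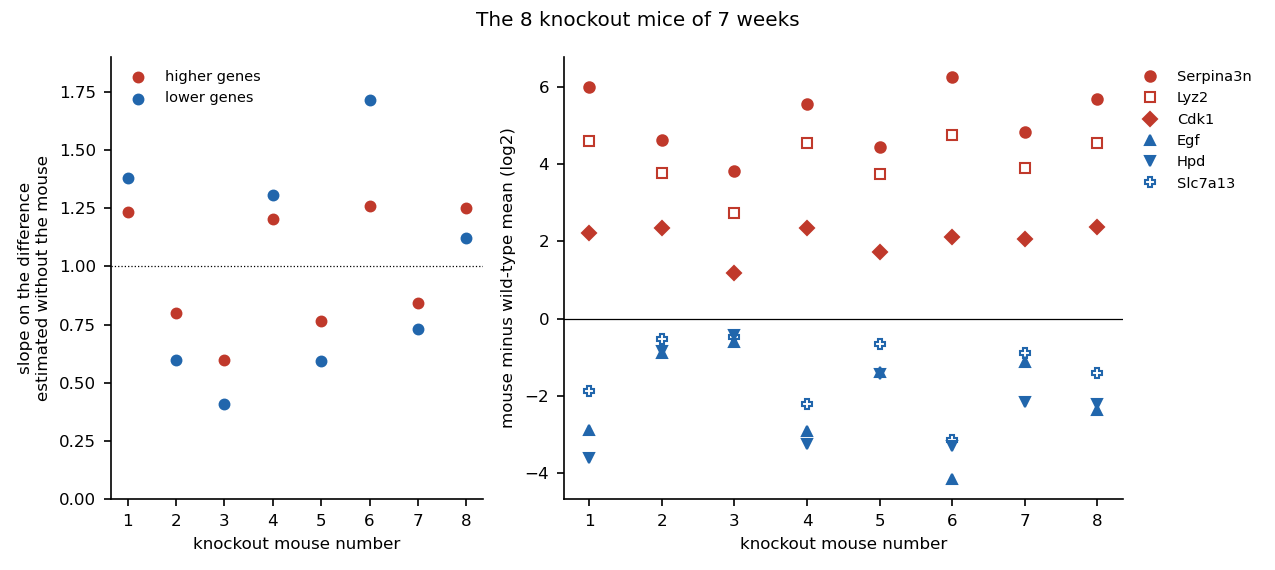
Left, slope of each knockout mouse on the difference estimated without it, over rising (red) and falling (blue) genes, with a dotted line at 1; right, deviation of each knockout mouse from the wild-type mean (log2) for 3 rising and 3 falling genes. Mouse 3 is nearest to wild type and mouse 6 farthest over falling genes, with slopes of 0.410 and 1.71, and all 8 mice deviate in the same direction.

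Mouse 3 was the knockout mouse nearest to the wild-type mean for 491 of the 716 genes that rose at least 2-fold and for 385 of the 648 that fell at least 1.5-fold. Mouse 6 was the farthest for 258 and 452 of them. Without mouse 6 the number of passing genes was 6310 and without mouse 3 it was 7468. Leaving out mouse 1, 8 or 4 gave 6383, 6384 and 6490, close to the count without mouse 6. Col4a3 signals in knockout mice 1 to 8 were 7.01, 7.87, 7.75, 7.18, 7.14, 7.12, 7.15 and 6.97. Mice 2 and 3 had the highest of them, and these values were still below all wild-type mice.

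The genotype difference at 7 weeks differed from that at 4 weeks for 3779 genes (17%), 2174 in the positive and 1605 in the negative direction, by the interaction term of the limma fit. Centred on the named genes, the split was 1673 positive and 3360 negative. At 4 weeks 9 genes passed. The values below describe some of the 16 genes, 8 rising and 8 falling, with the largest differences at 7 weeks. That difference is a term of the contrast between the ages, so the choice of these genes favours a large change and no test of them is given. For Serpina3n the difference was 1.05 ± 0.33 at 4 weeks and the change between ages 4.10 ± 0.46. For Vcam1 it was 0.93 ± 0.28 at 4 weeks and the change 3.36 ± 0.40. For Il1f6, the difference at 4 weeks was the greatest of the 16, 1.73 ± 0.39, and the change 2.43 ± 0.55. None of the 16 passed at 4 weeks on its own. At 4 weeks the differences of the 8 falling genes ran from -0.37 to 0.14. Egf had a difference of -0.37 ± 0.30 at 4 weeks and a change of -1.67 ± 0.42. Hpd had -0.28 ± 0.31 at 4 weeks and a change of -1.87 ± 0.44. Car3 had 0.08 ± 0.36 at 4 weeks and a change of -2.74 ± 0.51.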

How the data were processed

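Total RNA of 32 male mouse kidneys was hybridised to Affymetrix Mouse Gene 2.0 ST arrays, 1 per mouse. The authors deposited log2 values per array feature, made with Affymetrix Expression Console and RMA per the submitters' processing notes; versions are not given in the sources used here. Of 41345 features, 23521 named 1 gene symbol, 1814 several and 16010 none, by the platform annotation. Where features shared a symbol, the one with the highest mean over all samples was kept, which left 22180 genes. Groups came from the labels. All 4 groups entered 1 limma fit (limma 3.58.1, R 4.3.3) with Benjamini-Hochberg adjustment, and Col4a3, Col4a4 and Col4a5 were also given an exact two-sided permutation test. The fit was tested on simulated normal values with few changed genes and, per gene, the same spread in all groups. It recovered 81% of 1.5-fold and 100% of 2-fold changes, with 11 false calls. That setting cannot show how the fit performs where knockout mice spread more widely than wild-type mice. The precision is limited by 8 mice per group. The genes and the 69 gene lists were chosen with earlier results of these data known. Named genes were the 15 largest and the 10 smallest p-values in each direction, up to 6 passing genes per direction and 3 not passing per list, up to 4 per gene family, the 10 largest ratios of SDs and the reference genes, and the text gives part of these. Alternatives were other centrings, the 7-week mice alone, a replicate block, variance trend, array weights, feature choice, a rank-sum test and left-out mice. Promoter sequences are from RefSeq, build GRCm38.p6. Deviations of mice with the same number in both groups had correlations of -0.122 to 0.11. The same-numbered wild-type mouse was the best match for knockout mice 7 and 8 only. Such values cannot exclude a shared litter or day. The labels do not state what the numbers mean, and the main fit did not pair mice by them.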

Additional observations from a re-analysis of the deposited data

Results flagged for a closer look

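A single mouse lay apart from the other 7 of its group in 21 of the 570 groups of 8 values behind the genes named above, 7 of them in knockout and 14 in wild-type mice. A mouse was taken as apart where its gap to the nearest value, divided by the range of the group, exceeded 0.526, and chance alone flags about 1 in 20 groups. In knockout mice the ratio was 0.567 for Ace and 0.575 for Pck1, both lowest in mouse 6, and 0.527 for Tagln, highest in mouse 6. It was 0.581 for Arntl (highest) and 0.635 for Sirt7 (lowest) in mouse 1, 0.533 for Cxcr3 (lowest in mouse 2) and 0.534 for Cyp27b1 (highest in mouse 5). In wild-type mouse 1 it was 0.624 for Atp2b1 and 0.609 for Tlr8 (highest), and 0.645 for Ccl28 and 0.67 for Haao (lowest). In mouse 5 it was 0.577 for Bmp7, 0.526 for Ccr2 and 0.562 for Sdha, all lowest. In mouse 6 it was 0.623 for Cat, 0.579 for Flt1 and 0.616 for Neu2 (highest) and 0.691 for Col3a1 (lowest). Mouse 7 stood highest for Cd6 (0.651), and mouse 8 for Fmo5 (0.545) and Lyz2 (0.612).

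The genotype difference changed between 4 and 7 weeks, by the limma interaction term, for 3779 genes. The 16 genes with the largest differences at 7 weeks are among them, but they were chosen by that difference, which is a term of the contrast tested, so their passing supports nothing about the ages and their values are a description. For the rising genes the change was 4.105 for Serpina3n, 3.489 for Ccl5, 3.304 for Ccl2, 3.36 for Vcam1, 2.427 for Il1f6, 2.997 for Ccl17, 3.201 for Lyz2 and 2.954 for Timp1. For the falling genes it was -2.559 for Cyp2d12, -2.737 for Car3, -2.022 for Dnase1, -1.872 for Hpd, -1.67 for Egf, -2.151 for Pde6a, -1.777 for Slc22a7 and -1.701 for Fcamr. Of the 16010 array features that name no gene, which entered no comparison above, 1695 (10.6%) passed in a fit of all features, 596 higher and 1099 lower in knockout mice.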

How the results depend on the processing

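The number of passing genes at 7 weeks (7167) ranged from 6310 without knockout mouse 6 to 7468 without knockout mouse 3, and the number that differed between ages (3779) from 3187 to 4293. Centring each array on its named genes, an alternative added after seeing the data, gave 10892 passing genes, and requiring a difference of at least 1.5-fold gave 2163. The other settings moved the count at 7 weeks by less than 1.5 times, from 6583 with wild-type mice 5 and 6 both left out, also added after seeing the data, to 9274 with array weights. With the replicate block 7067 genes passed at 7 weeks and 3743 between ages, and of the genes named only Camp lost its call. The differences of Col4a3 and Col4a4 kept their side of the threshold with each mouse left out, while that of Col4a5 ranged from -0.163 to -0.108 and its exact permutation p from 0.0129 to 0.0786. Near-zero values that changed sign were Cd163 (-0.076), Mme (-0.031) and Rsad2 (-0.060) under the centring on named genes and Upk1a (0.047) without wild-type mice 5 and 6. Cd163 ranged from -0.0147 to 0.0752 with single mice left out. The causes of these shifts were not tested, except that a fold threshold calls fewer genes by construction. Of 285 named genes 264 kept their direction and call under the centring on named genes, 7 lost the call, 11 gained one and 3 changed sign. Genes with signals near background and near-identical copies that share probes limit what single features can show.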
